A study of Homo sapiens with 4 samples.

Results

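Protocadherins are cadherin-related adhesion proteins of the cell surface that were described mainly in neurons, where many of them let cells recognise like partners. Most of the clustered genes lie in tandem arrays named alpha, beta and gamma (PCDHA, PCDHB and PCDHG). In the alpha and gamma arrays each variable first exon carries its own promoter and is spliced to exons shared by the whole array, whereas each PCDHB gene is a single exon with no shared part. The non-clustered genes stand alone in the genome, and several of them have very long introns.

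The protocadherin genes were taken from the table of RNA in HEK293T, an established line from human embryonic kidney with the SV40 large T antigen. They were the protein-coding genes whose symbol begins with PCDH followed by A, B, G or a digit, with the copy on the Y chromosome left out, and numbered 40 of the 51740 rows. There were 11 PCDHA, 16 PCDHB, 1 PCDHG (PCDHGA1) and 12 non-clustered genes. Counts of other PCDHA and PCDHG genes were not analysed here, and their sequences were used in the promoter search and for shared transcript windows. Per the labels the cells of both groups were crosslinked with formaldehyde, with no other treatment named, and were split into a nuclear and a cytoplasmic fraction with 2 biological replicates each. Each library was made from 400 ng of ribosome-depleted RNA, so that values do not compare amounts per cell. The main values follow the authors' size factors. Shares of the RNA of a fraction are compared only where libraries are scaled to equal totals. Because the line is a cultured population, fewer expressing cells and less RNA per cell cannot be told apart.

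Whole read counts of single libraries were recovered from the deposited means, by finding the whole numbers that give the deposited values. The replicate numbers were not recovered, so the libraries are named the deeper and the shallower library of their fraction. Counts on the genes recovered came to 22695255 and 19729404 in the nuclear libraries and to 16211182 and 14875896 in the cytoplasmic libraries, and these genes held 77.1% of the normalized total. Normalized counts are counts divided by a library's size factor, which was 1.34 and 1.19 in the nuclear and 0.853 and 0.755 in the cytoplasmic libraries. The fractions were separated by their usual markers. The nuclear RNA MALAT1 was 11.1-fold higher in the nucleus, and the mRNA of the glycolytic enzyme GAPDH was 13.7-fold higher in the cytoplasm.

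The PCDHB genes are shown by their promoters, because these carry the feature that the rule for choosing genes did not use. Promoter choice in the clusters is known to depend on a conserved element bound by the insulator protein CTCF. RefSeq promoter windows of GRCh38.p14, from 250 bases before to 50 bases after the start site, were listed for 14 of the 16 PCDHB genes and not for PCDHB6 and PCDHB11. The most frequent word of 10 bases in them, counted on the strand of the gene, was GGTGGCGCTG. It was then searched on both strands. It was chosen because it was the most frequent, so its count is a description. The word, in capitals below, stood in 12 of the 14 windows and was missing from those of PCDHB1 and PCDHB14. It lay on the strand of the gene, on which it had been chosen. Its first base was from 84 to 2 bases before the start site, and in PCDHB8 the word ran across that site. It was found in 0 of 13 PCDHA windows, 0 of 25 PCDHG windows and 0 of 12 windows of non-clustered genes, and in 0.276% of all 35116 windows. A window without these letters says nothing of other forms of the element. The genes printed are those with the most counts that held the word (PCDHB2, PCDHB15 and PCDHB13), together with PCDHB8, whose stretch matched that of PCDHB13 at 49 of 50 bases. All lie on the plus strand.
PCDHB2, chr5:141094535-141094584: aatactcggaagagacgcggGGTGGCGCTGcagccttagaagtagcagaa
PCDHB15, chr5:141245305-141245354: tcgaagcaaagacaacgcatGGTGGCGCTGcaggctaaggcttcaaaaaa
PCDHB13, chr5:141213856-141213905: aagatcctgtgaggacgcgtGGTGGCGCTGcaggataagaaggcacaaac
PCDHB8, chr5:141177768-141177817: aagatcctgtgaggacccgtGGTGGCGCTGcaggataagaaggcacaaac

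Of the 40 genes, 25 had a DESeq2 adjusted p-value in the authors' deposited table and were taken as tested. These were PCDHA1 and PCDHA10, 10 PCDHB genes, PCDHGA1 and all 12 non-clustered genes. No read was counted for PCDHA8 and PCDHB6. The other 13 (PCDHA2 to PCDHA7, PCDHA9, PCDHAC2, PCDHB1, PCDHB4, PCDHB5, PCDHB7 and PCDHB10) had no adjusted p-value and at most 5 counts each over the 4 libraries. The differences were given as log2 fold changes of cytoplasm over nucleus with the authors' standard error (SE), and a gene was called at the threshold of the study, an adjusted p-value of at most 0.01.

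Of the 25 tested genes, 4 were higher in the nuclear fraction, 0 were higher in the cytoplasmic fraction and 21 did not pass the threshold. The background among the 23333 tested genes was 52.4% called in either direction, 26.5% in the nuclear and 25.9% in the cytoplasmic direction. The nuclear genes were PCDH15, PCDH7, PCDH9 and PCDHGA1. At an unadjusted p under 0.05 there were 5 genes in the nuclear and 3 in the cytoplasmic direction. limma on the recovered counts called the same 4 nuclear genes and 2 cytoplasmic ones, PCDH10 and PCDH18. Of all 23065 genes in that fit, limma called 7289 nuclear and 6446 cytoplasmic. The median log2 fold change of the 25 genes was -0.22, and that of all tested protein-coding genes was 0.11. Of the 40 genes, only PCDHGA1 and PCDH7, PCDH9, PCDH10, PCDH15, PCDH17, PCDH18 and PCDH20, with PCDHB2, had a mean normalized count over 50.

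**Figure D1:**
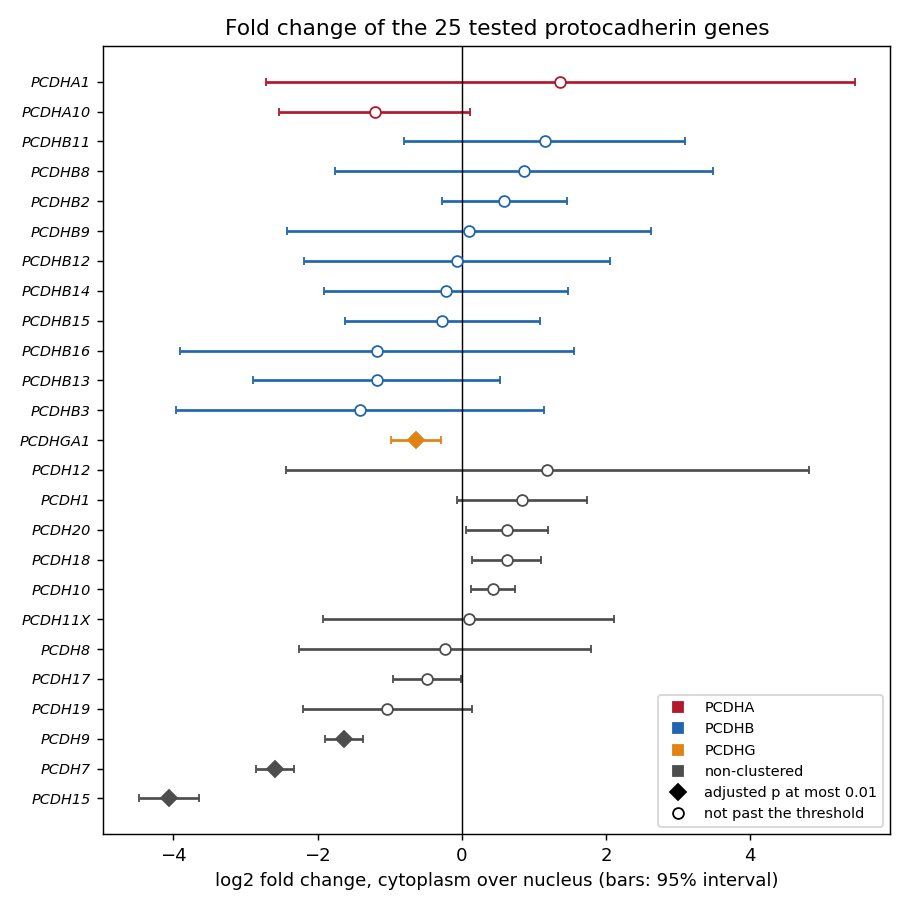
Log2 fold change of cytoplasm over nucleus (x axis) of the 25 tested protocadherin genes (y axis), grouped by array and coloured by group, with bars for the 95% interval from the deposited standard error. The filled diamonds are the 4 genes with an adjusted p-value of at most 0.01, all to the left of 0, and every PCDHB interval holds 0.

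The PCDHB genes were low, and 0 of the 10 tested were called in either fraction. Of 2362 other protein-coding genes with means in their range, 26.0% were called. All 16 PCDHB genes have a single exon block in GENCODE 44 and lie within 198 kb of chromosome 5, on the plus strand. Together they held 156 and 220 counts in the deeper and shallower nuclear library and 141 and 113 in the deeper and shallower cytoplasmic library. In normalized counts these sums were 116 and 185 in the nuclear and 165 and 150 in the cytoplasmic libraries. The cytoplasmic sums lay between the nuclear ones, and the fold change of the mean sums was 1.05. Of the 10 tested PCDHB genes 0 had an unadjusted p under 0.05, and limma called 0. Of all 23065 genes, at any mean, limma called 7289 nuclear and 6446 cytoplasmic.

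PCDHB2 had the most reads of the array, with 249 of its 630 counts (39.5%). Its normalized counts were 32.1 and 69.8 in the nuclear libraries and 77.4 and 75.5 in the cytoplasmic libraries. Both cytoplasmic values lay above both nuclear values, although the nuclear libraries differed from each other by more than the shallower one differed from the cytoplasmic ones. The log2 fold change of PCDHB2 was 0.59 (SE 0.44), with a DESeq2 adjusted p of 0.245, and its sign turned to -0.07 when libraries were scaled to equal totals. In limma fits without the deeper or the shallower nuclear library it was 0.13 or 1.24. Without PCDHB2, the other 15 genes summed to 84.3 and 115 in the nuclear and to 87.9 and 74.2 in the cytoplasmic libraries, which overlapped.

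Among the remaining tested PCDHB genes, the counts of PCDHB15 were 21 and 35 in the nuclear and 16 and 14 in the cytoplasmic libraries. PCDHB13 had 26 and 20 nuclear and 9 and 4 cytoplasmic counts, and PCDHB14 had 16 and 17 nuclear and 9 and 9 cytoplasmic counts. After division by the size factors, both nuclear values were above both cytoplasmic values for PCDHB3, PCDHB13 and PCDHB14, the reverse held for PCDHB2 and PCDHB11, and the fractions overlapped for the other 5. Over all genes recovered and tested, the share with both nuclear libraries above both cytoplasmic ones was 45.5%, and the share with the reverse was 40.5%. The log2 fold changes of the 10 genes ran from -1.41 (PCDHB3, SE 1.31) to 1.15 (PCDHB11, SE 1.00), and all 10 of the 95% intervals held 0. The interval of PCDHB2 was the narrowest of the 10, from -0.27 to 1.45, and that of PCDHB16 ran from -3.91 to 1.55.

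PCDHB8 varied widely between libraries of the same fraction. It had 1 and 11 counts in the nuclear libraries and 13 and 2 in the cytoplasmic ones. Of the windows of 100 bases along its transcript, 25.6% also occurred in another protocadherin gene, against 15.1% for PCDHB13 and 11.4% for PCDHB2. Reads from such windows cannot be assigned to 1 gene with certainty, and their part in the counts was not tested.

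Per kb of gene length, which for a single exon is also the transcript length, PCDHB2 had the highest mean at 15.5 normalized counts per kb. PCDHB15 followed at 5.19 and PCDHB14 at 2.76. The 10 tested genes ran down to 1.22 for PCDHB9, so that PCDHB2 lay 12.7 times above the lowest. How much of each gene remained countable after the authors removed stretches shared by several genes was not given in the sources used here, so these lengths are those of the annotation. Along the array there was no even level. PCDHB1 at the start had 2 counts, PCDHB2 next to it had 249, the genes from PCDHB4 to PCDHB7 had at most 5 each, and the last 6 genes, from PCDHB10 to PCDHB15, had from 2 to 86.

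**Figure D2:**
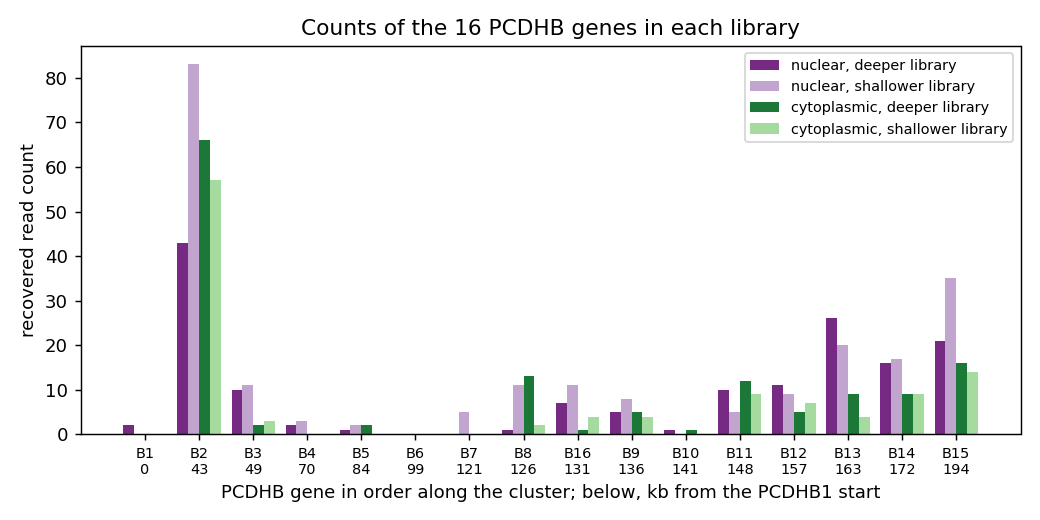
Recovered read count (y axis) of the 16 PCDHB genes in each of the 4 libraries (bars), in order along the array with the distance from the PCDHB1 start in kb under each name (x axis). PCDHB2 has the tallest bars in every library, from 43 to 83 counts, and PCDHB6 has none.

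Genes without introns gave a class against which to set the PCDHB genes. Of the tested protein-coding genes with 1 exon block, 87 outside the protocadherins and the replication-dependent histones had means in the range of the tested PCDHB genes, from 5.24 to 63.7. Their median log2 fold change was 1.40, and 30 of them (34.5%) were higher in the cytoplasmic fraction. The PCDHB median log2 fold change was -0.14. The 87 genes had a median mean count of 20.2 and a median SE of 0.76, against 8.57 and 1.04 for the tested PCDHB genes. Shares called were therefore not compared at equal precision. For 3 of the 10 PCDHB genes the whole 95% interval lay below 1.40, and for the other 7 it did not. Of the 87 genes, 16 were at or below the PCDHB median. Genes with several exon blocks in the same range had a median of -0.57. Across all protein-coding genes of that range outside the protocadherins, 26.0% were called in either direction. No test of the class difference was made, and the medians are a description.

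**Figure D3:**
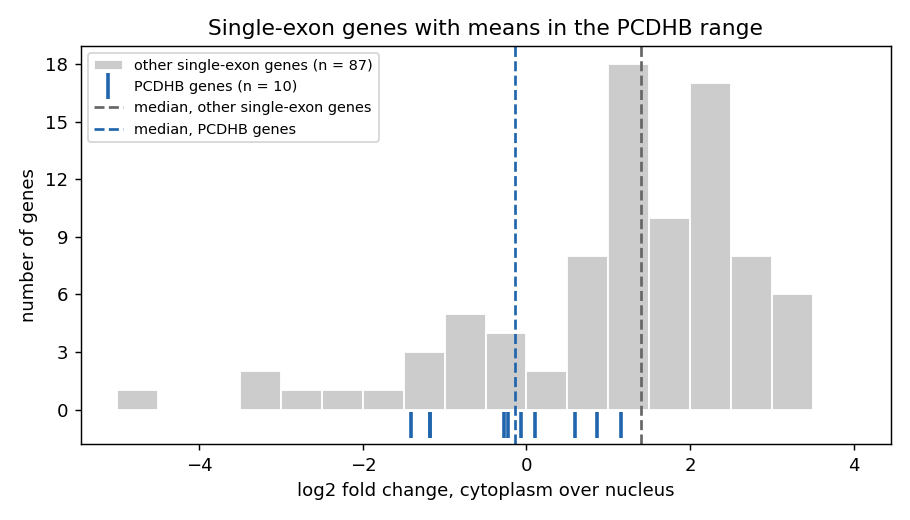
Number of genes (y axis) by log2 fold change of cytoplasm over nucleus (x axis) for the 87 other single-exon genes with means in the PCDHB range (grey bars), with ticks under the bars for the 10 tested PCDHB genes. The dashed lines mark the medians, 1.40 for the other genes and -0.14 for the PCDHB genes.

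Few reads were counted on the PCDHA genes apart from PCDHA10. The 11 genes held 129 counts in all, of which PCDHA10 had 101 (78.3%). PCDHA10 had 41 and 38 counts in the nuclear and 15 and 7 in the cytoplasmic libraries, or 30.6 and 32.0 against 17.6 and 9.28 normalized counts. The fractions did not overlap for PCDHA10, but its log2 fold change of -1.21 (SE 0.68) had a DESeq2 adjusted p of 0.114. Without PCDHA10 the array held 12 and 8 nuclear and 7 and 1 cytoplasmic counts. PCDHAC2, of the C-type genes whose promoters are used differently from the other alpha genes, had 1 nuclear and 1 cytoplasmic count. In GENCODE 44 all 11 PCDHA genes end at the same base, 141012347 of chromosome 5, so that their spans are nested and PCDHA2 starts 8716 bases after PCDHA1. The authors removed stretches under several genes before counting, and which stretches of the PCDHA genes were kept is not given in the sources used here. A low count here and a low level of the RNA therefore cannot be told apart. In 100-base windows, from 21.2% to 57.6% of their transcripts were shared with another protocadherin.

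PCDHGA1 was the only gamma gene whose counts were analysed. In counts not scaled by length, PCDHGA1 had far more than any PCDHA or PCDHB gene. It had 709 and 744 counts in the nuclear and 326 and 272 in the cytoplasmic libraries. In normalized counts these were 529 and 626 against 382 and 360, with no overlap. It was 1.55-fold higher in the nuclear fraction, with a log2 fold change of -0.63 (SE 0.18) and a DESeq2 adjusted p of 0.000774. In limma fits that left out 1 library each, PCDHGA1 no longer passed, with adjusted p from 0.0135 to 0.0461. Its span (chromosome 5, 141330514 to 141512975, plus strand, 182 kb) holds the starts of the other gamma genes, the first of them PCDHGA2, 8246 bases downstream, and 35.4% of its transcript windows were shared. Intronic reads were counted too, and how many of the counts came from the first exon of PCDHGA1 cannot be told from the table.

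The clustered and the non-clustered genes were set side by side as shares of the protocadherin counts. The PCDHB genes made up 1.15% and 2.00% of all protocadherin counts in the nuclear libraries and 4.82% and 4.51% in the cytoplasmic libraries. Both cytoplasmic shares were above both nuclear shares, a ratio of 2.97 between the means. Against the clustered genes alone, the PCDHB share was 17.0% and 21.8% in the nucleus and 28.8% and 28.8% in the cytoplasm. With 2 libraries in each fraction, an exact permutation test cannot give a two-sided p under 0.333. The denominators moved more than the PCDHB sum, since the 4 non-clustered genes that span over 300 kb made up 82.2% and 78.8% of the nuclear and 42.7% and 43.1% of the cytoplasmic protocadherin counts.

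Of the 12 non-clustered genes, 3 were higher in the nuclear fraction and 9 did not pass. That is near the nuclear share of all tested genes, 26.5%. PCDH15, which encodes a giant cadherin of the tip links of inner ear hair cells, had 1412 and 1190 counts in the nuclear libraries and 54 and 45 in the cytoplasmic ones. Its normalized counts were 1053 and 1001 against 63.3 and 59.6, a 16.7-fold excess in the nucleus. The log2 fold change was -4.06 (SE 0.21), with a DESeq2 adjusted p of 4e-80. PCDH15 (ENSG00000150275) lies on chromosome 10 from 53802771 to 55627942, minus strand, and spans 1825 kb, the longest of the genes described.

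PCDH7 and PCDH9 are delta-1 protocadherins, a subfamily with a longer ectodomain than delta-2 and a conserved motif in the tail that binds protein phosphatase 1. PCDH7 was the most counted of all 40 genes, with 7620 and 5565 counts in the nuclear and 750 and 634 in the cytoplasmic libraries. Normalized, these were 5682 and 4680 against 879 and 840, or 6.03-fold more in the nucleus. Its log2 fold change was -2.59 (SE 0.13, DESeq2 adjusted p 2.69e-85).

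PCDH9 had 2147 and 1910 nuclear and 443 and 389 cytoplasmic counts. Its normalized counts of 1601 and 1606 in the nucleus and 519 and 516 in the cytoplasm were nearly equal between replicates, and the fold was 3.10. The log2 fold change of PCDH9 was -1.63 (SE 0.14, DESeq2 adjusted p 6.17e-32). PCDH7 spans 426 kb on chromosome 4 (30720369 to 31146805, plus strand) and PCDH9 928 kb on chromosome 13 (66302834 to 67230445, minus strand). The other delta-1 genes were low. PCDH1 had 48 and 35 nuclear and 53 and 41 cytoplasmic counts, at 0.84 (SE 0.46, DESeq2 adjusted p 0.107), and PCDH11X had between 3 and 14 counts in each library.

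**Figure D4:**
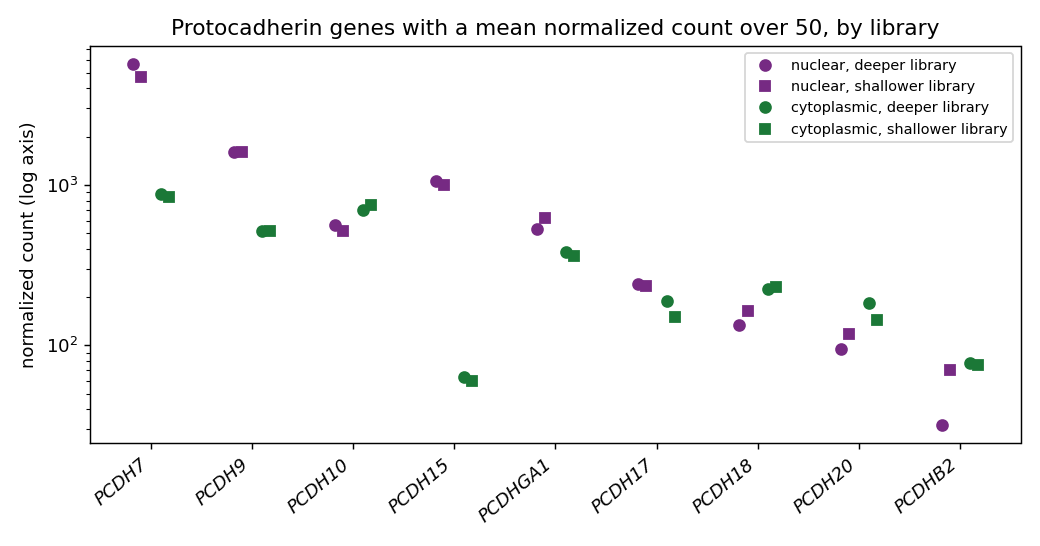
Normalized count on a log axis (y axis) of the 9 protocadherin genes with a mean over 50 (x axis), with a point for each of the 2 nuclear (purple) and 2 cytoplasmic (green) libraries. The nuclear points lie above the cytoplasmic ones for PCDH7, PCDH9, PCDH15, PCDHGA1 and PCDH17 and below them for the other 4 genes.

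Several delta-2 protocadherins bind a regulatory complex of actin assembly through their tails, and none of the 5 was called. Of all tested genes, 52.4% were called in either direction. PCDH10 fell just outside the threshold, with a DESeq2 adjusted p of 0.0105. It had 753 and 617 counts in the nuclear and 600 and 570 in the cytoplasmic libraries, or 562 and 519 against 704 and 755 normalized counts. The cytoplasmic values lay above the nuclear ones without overlap, at a log2 fold change of 0.43 (SE 0.16). PCDH18, which lies on chromosome 4 like PCDH10, had normalized counts of 133 and 163 in the nucleus and 224 and 232 in the cytoplasm, at 0.62 (SE 0.25, DESeq2 adjusted p 0.0207).

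PCDH17 was on the other side, with 242 and 235 normalized counts in the nucleus and 190 and 151 in the cytoplasm, at -0.48 (SE 0.24, DESeq2 adjusted p 0.0740). PCDH19, the gene of a female-limited epilepsy, had 59 and 39 nuclear and 13 and 17 cytoplasmic counts, at -1.03 (SE 0.60, DESeq2 adjusted p 0.127). PCDH8 had from 5 to 18 counts in a library. Of the other non-clustered genes, PCDH20 had 94.7 and 118 normalized counts in the nucleus and 183 and 144 in the cytoplasm, at 0.63 (SE 0.29, DESeq2 adjusted p 0.0508), and PCDH12 had at most 4 counts in a library.

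The signs of PCDH10, PCDH18 and PCDH20 hung on the scaling. The size factors left the normalized totals of the cytoplasmic fraction above those of the nuclear one, and scaling to equal totals lowered every log2 fold change by 0.66. On that scale PCDH10 was at -0.23, PCDH18 at -0.04 and PCDH20 at -0.03. The 4 nuclear calls remained, and PCDH17 and PCDH19 were added, at -1.14 and -1.69. Of all tested genes 38.3% were nuclear on this scale, against 26.5% on the main one.

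The non-clustered genes were ordered by gene span. The 4 genes over 300 kb (PCDH15, PCDH9, PCDH11X and PCDH7) had a median log2 fold change of -2.11, and 3 of them were called nuclear. PCDH11X, at 0.10 (SE 1.03), was not called. It had 40 counts in all, and 33.3% of its 100-base transcript windows also occurred in another protocadherin gene. The part of such windows in its counts was not tested. The 7 genes under 100 kb had a median of 0.62 with 0 calls. Summed counts of the long genes were 11189 and 8679 in the nuclear and 1250 and 1081 in the cytoplasmic libraries, while those of the other 8 genes were 1498 and 1325 against 1188 and 1033. In normalized counts the long genes were 5.40-fold higher in the nucleus and the other 8 were 1.24-fold higher in the cytoplasm, without overlap in either case. On equal totals the latter turned to a log2 fold change of -0.35.

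Across the 12 genes the rank correlation (Spearman) of span with log2 fold change was -0.71, and across the 7 with a mean over 50 it was -0.96. These are descriptions across genes that share the same 4 libraries. Of the 781 tested protein-coding genes over 300 kb outside the protocadherins, 616 were called nuclear and 8 cytoplasmic, and the median was -2.35. Of 11608 genes with several exon blocks under 100 kb, 2095 were called nuclear and 5018 cytoplasmic, and the median was 0.48. These medians lay near those of the long and the short protocadherins, which is a description with no test. Because exons and introns were counted together, the table does not separate unspliced from spliced RNA.

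**Figure D5:**
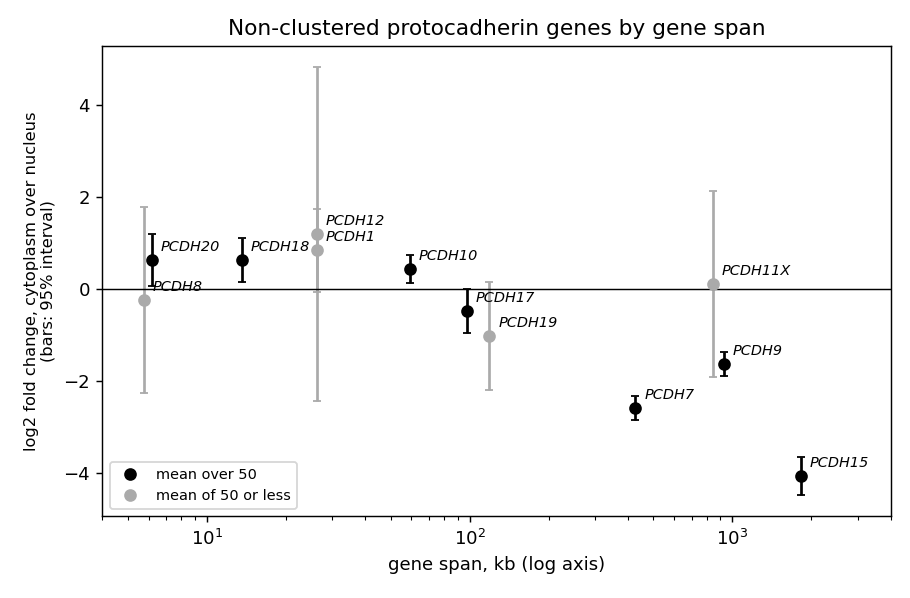
Log2 fold change of cytoplasm over nucleus (y axis, bars for the 95% interval) against gene span in kb on a log axis (x axis) for the 12 non-clustered protocadherin genes, with genes of a mean of 50 or less in grey. PCDH7, PCDH9 and PCDH15, over 300 kb, lie between -1.63 and -4.06, and the black points under 100 kb lie between -0.48 and 0.63.

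Genes that act with the protocadherins were read from lists of known partners. Of 18 regulators of the cluster promoters and of cohesin, the ring complex that forms chromatin loops, 4 were higher in the cytoplasm, 6 in the nucleus and 8 did not pass, with a median of -0.06. Over all tested genes the shares were 25.9% and 26.5%, so that for 18 genes neither count lay far from the background. STAG1, a cohesin subunit, was 4.66-fold higher in the nucleus, and PDS5B, which regulates cohesin, was 3.36-fold higher. The cohesin loader NIPBL was 2.50-fold higher in the nucleus, and the cohesin subunit RAD21 was 1.96-fold higher in the cytoplasm. On equal totals 13 were nuclear and 0 cytoplasmic, on a scale where 38.3% of all tested genes were nuclear and 16.2% cytoplasmic.

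Of 18 intracellular partners and proteases that cut the protocadherin tail, 7 were cytoplasmic, 7 nuclear and 4 did not pass, with a median of 0.11. The shares over all tested genes were 25.9% cytoplasmic and 26.5% nuclear. The gamma-secretase subunits APH1A and PSENEN were 6.79-fold and 6.31-fold higher in the cytoplasm, as was BRK1 of the actin regulatory complex at 5.87-fold. The focal adhesion kinase PTK2 was 2.94-fold higher in the nucleus. On equal totals, with the background share moved as above, there were 5 cytoplasmic and 10 nuclear calls.

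Other members of the cadherin superfamily were read in the same way. Among 20 tested classical cadherins and catenins, 7 were higher in the nuclear fraction, 1 in the cytoplasmic fraction and 12 did not pass, with a median of -0.997. On equal totals the counts were 10 nuclear and 0 cytoplasmic. Over all tested genes 26.5% were nuclear and 25.9% cytoplasmic, and on equal totals 38.3% and 16.2%. The classical cadherins CDH12 and CDH20 were 18.9-fold and 8.32-fold higher in the nucleus, and CTNND2, a delta-catenin of neurons, was 10.0-fold higher. CDH2, which encodes N-cadherin, was 2.51-fold higher in the nucleus. Of 11 other cadherin genes, most of them giant cadherins, 6 were nuclear, 0 were cytoplasmic and 5 did not pass, with a median of -0.69. For these, 10 were nuclear and 0 cytoplasmic on equal totals. These lists were not tested against other genes. The largest differences among those with a mean over 50 were 3.11-fold for CDH23, the partner of PCDH15 in tip links, 2.98-fold for DCHS2, 2.60-fold for FAT3 and 1.80-fold for FAT4.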

How the data were processed

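The authors aligned reads to hg38 with STAR and counted them with featureCounts 2.0.2 over exons and introns of an extended GENCODE 34 annotation, from which stretches under several genes had been removed. Whether strand was used was not given in the sources used here. The deposited table held the authors' DESeq2 results of cytoplasm over nucleus with 1 row a gene. The mean normalized count in the deposited table is a signal pooled by the authors from 4 libraries. They also deposited a log2 fold change with its error, a Wald score, a p-value and an adjusted p-value, and the last of these was the test used.

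Counts of single libraries were recovered as the whole numbers that, weighted by the 4 size factors, give the deposited mean. Where several solutions remained, or the mean was 45 or more, they also had to give its fold change and error. This gave 98.9% of the 23333 tested genes and all 25 tested protocadherins. Of these, 18 had 1 candidate solution that matched the mean and 7 had several. Where the mean was under 45 and had 1 candidate, the counts gave the deposited log2 fold change within 4.56e-06. For the others a match to the fold was a condition of the choice, so it is no check. The recovery was tested on simulated data. Genes with a mean over 20000 were not sought. No count model was run on the recovered values. limma 3.58.1 with a mean-variance trend on log2(normalized count + 0.5) was an alternative, checked on simulated data.

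Spans and exons came from GENCODE 44 on hg38, a later release than the authors', matched by identifier for all 40 members. Named genes were members with a mean over 50 or a call, and of each list up to 4 called genes with a mean over 50 and the largest fold changes. Counts of some other members were added after their values were seen. Members and lists were chosen with earlier results of these data known. Intervals cover the deposited error only. Replicate p-values rest on 2 samples a fraction.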

Additional observations from a re-analysis of the deposited data

How the results depend on the processing

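The counts of members higher in the nuclear (4) or cytoplasmic (0) fraction were recomputed under each alternative. Centring on the protein-coding median, Bonferroni adjustment and a mean over 50 left them between 3 and 4 and at 0. limma with a pseudocount of 0.5 or 2 found 2 cytoplasmic members (PCDH10 and PCDH18), as did an adjusted p of at most 0.05 in the deposited table. Over all 23065 genes, limma called 6446 cytoplasmic at a pseudocount of 0.5 and 6793 at 2. With libraries left out in turn (limma, with the lone library assumed to vary like the others), the nuclear count ranged from 0 to 4 and the cytoplasmic count from 0 to 0. Without the deeper or the shallower nuclear library it was 0, but then 0 of all 23065 genes were called in either direction, and the adjusted p of PCDH7, PCDH9 and PCDH15 was at most 0.0134. Without the deeper cytoplasmic library the 4 were PCDH7, PCDH9, PCDH15 and PCDHA10, and without the shallower one PCDHA10 dropped out too. Under Bonferroni PCDHGA1 did not pass.

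On equal library totals the signs of 6 tested members turned. With a mean over 50 these were PCDHB2 (-0.0706), PCDH10 (-0.23), PCDH18 (-0.0411) and PCDH20 (-0.0348), and below it PCDHB9 and PCDH11X (both at -0.56). On that scale 6 of the 25 tested members were nuclear, as were 38.3% of all tested genes. The non-clustered median of -0.07 moved to -0.73 on equal totals, to -0.18 centred on the protein-coding median, to -0.48 over means above 50 and to -1.66 as a fold of summed counts, where PCDH7 alone held 53.5% of the counts. The PCDHB median of -0.14 moved to -0.81 on equal totals and to 0.59 over means above 50, where PCDHB2 is the only gene, was -0.26 after centring and turned to 0.06 as a fold of summed counts. The ratio of PCDHB shares, 2.97, became 2.31 without PCDHB2 and 1.49 over clustered genes. No tested member had 0 counts in a fraction, so no bound at a floor of 3 counts entered a median. No paired analysis was possible because the table carries no replicate numbers. Precision was limited by the counts of the PCDHA and PCDHB genes, with a median SE of 1.04 for the 10 tested PCDHB genes against 0.27 for the non-clustered genes.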
